A study of Mus musculus with 6 samples.

Results

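The genes described here are 46 genes of DNA replication and S phase. They were given as a list, chosen with earlier results of these data known. It runs from the licensing of replication origins to the packaging of the copied DNA. All 46 have a probe set with exactly 1 gene symbol on the array, out of 19938 genes named in this way, and 42 of them were bright enough to be among the 14953 genes tested. They were measured on 6 Affymetrix microarrays of fibro/adipogenic progenitors (FAPs), the stromal cells of skeletal muscle that can form scar tissue or fat. The study was about an intronic polyadenylation event of Pdgfra, which codes for a growth factor receptor of these cells, and its effect on muscle fibrosis.

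Every group came from male C57BL/6 mice aged 8 to 12 weeks. In all of them the tibialis anterior muscle was injured with 30 µL of 50% glycerol and given a vivo-morpholino (VMO) 3 days later, and FAPs were taken 2 days after the VMO. A VMO is an antisense oligomer carrying a delivery group, made to block a chosen site on an RNA inside the animal. The control group had the Control VMO, the pA-VMO group had reagents named for polyadenylation sites, and the 5'ss-VMO group had a reagent named for a 5' splice site. There were 2 arrays in a group. Cells of 4 mice were pooled for every array, so that no value belongs to 1 animal. Uninjured muscle and muscle without a VMO were not analysed here. The sources used here do not say how the cells were sorted.

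A cell copies its genome once per cycle. In G1 phase, the origin recognition complex, Cdc6 and Cdt1 load the ring-shaped Mcm helicase onto DNA, and at the start of S phase Cdc45 and the GINS complex turn that ring into a moving helicase, behind which primase, DNA polymerases and the sliding clamp Pcna make the new strands. Transcription of most of these genes is driven by E2F factors once cyclin-dependent kinases have released these factors from the retinoblastoma proteins. The RNA of these genes is therefore high in cells that are entering or passing through S phase. FAPs are mostly quiescent in resting muscle and divide in the first days after injury.

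Promoter sequence is shown first because the members are known as a group with a common kind of control element. A window from 250 bases before to 50 bases after the start was found in the RefSeq promoter table (GRCm38.p6) for 37 of the 46 members, 42 windows in all since a few genes have several starts. E2F-type letters, searched on both strands as TTTCGCGC, TTTGGCGC, TTTCCCGC and TTCCCGCC, stood in 21 of the 42 windows (50%), against 3.49% of all 32851 windows of this length and 5.63% of the 14841 windows of genes tested. The last pair of these motifs overlap each other by 7 letters, and the others can overlap too, so 1 stretch can count for several motifs. Counted singly they stood in 8, 6, 7 and 8 of the member windows. The windows below belong to members whose values are given further on. They are written 5′ to 3′ on the strand of the gene, with the E2F-type letters in capitals, all 7 lie before the start, and none overlaps another RefSeq gene.
Mcm5, chr8:75109332-75109391, plus strand: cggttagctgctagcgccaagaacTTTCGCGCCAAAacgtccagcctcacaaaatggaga
Mcm6, chr1:128359721-128359839, minus strand: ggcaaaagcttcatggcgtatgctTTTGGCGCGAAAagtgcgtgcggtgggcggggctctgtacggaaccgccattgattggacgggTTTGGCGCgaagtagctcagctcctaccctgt
Prim1, chr10:128015176-128015214, plus strand: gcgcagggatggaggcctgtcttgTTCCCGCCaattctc
Rfc3, chr5:151651209-151651242, minus strand: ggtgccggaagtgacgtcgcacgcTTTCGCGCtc
Rrm1, chr7:102441604-102441659, plus strand: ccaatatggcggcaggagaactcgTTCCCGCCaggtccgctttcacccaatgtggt
Chaf1a, chr17:56040345-56040400, plus strand: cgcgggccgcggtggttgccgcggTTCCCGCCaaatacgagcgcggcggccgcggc
Uhrf1, chr17:56303265-56303320, plus strand: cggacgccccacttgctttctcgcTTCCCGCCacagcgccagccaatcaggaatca

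A match describes letters and is not evidence that a factor is bound there. The letters of the CCAAT box, searched as CCAAT, stood in 22 of the 42 windows (52.38%) against 37.4% of all windows and 36.4% of those of genes tested. The CHR element, a motif known from genes of mitosis and searched as TTTGAA, stood in 4 (9.52%) against 17.9% and 12.2%. The 19 members tested that have E2F-type letters had median differences of 0.19 for pA-VMO and 0.16 for 5'ss-VMO (log2, against control). The 17 tested members whose windows lacked the letters had medians of 0.12 and 0.09, and the 6 tested members without a window had 0.16 and 0.14. The search took exact letters in these windows alone, so lacking them is not lacking control by E2F factors. Whether such control relates to the differences was not tested.

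The cells carried the identity of FAPs on all arrays. The 9 of 10 FAP markers that could be read all lay above the level floor used here (the 25th percentile of the gene means, log2 5.209), with mean levels between 7.37 and 13.1, and Pdgfra itself read 11.37 and 11.24 on the control arrays, 11.29 and 11.32 with pA-VMO and 11.31 and 11.29 with 5'ss-VMO. The summed linear level of the FAP markers was 34570 to 36217 in the control group, 34146 to 34387 with pA-VMO and 33585 to 34470 with 5'ss-VMO. Markers of other cells had far lower sums, and some moved with the groups. The lists differ in length and some genes in them lie below the floor. The sums therefore do not measure how many other cells there were. The 12 of 12 macrophage markers summed to 1119 to 1270 in controls, 1322 to 1330 with pA-VMO and 1466 to 1468 with 5'ss-VMO. With 5'ss-VMO all 12 had a difference above 0, where 50.4% of all genes tested did. For 10 of them both 5'ss-VMO arrays lay above both controls, where 23.2% of all genes did, and for 0 below. At an adjusted p under 0.05 in limma, 2 were higher (C1qa by 0.39 and C1qc by 0.50), where 0.502% of all genes were. The 8 satellite cell and myoblast markers, all at or above the floor, summed to 704 to 792, 741 to 778 and 927 to 986 in the same order. For the 7 endothelial markers the ranges were 496 to 534, 529 to 562 and 570 to 581, with Emcn below the floor, and for the 7 pericyte and smooth muscle markers 830 to 874, 913 to 979 and 959 to 964. The 8 lymphocyte markers read here (Cd3d, Cd3g, Cd79a and Ms4a1 below the floor) summed to 297 to 298, 303 to 326 and 291 to 294. For the 7 neutrophil markers (S100a8, Ly6g, Cxcr2 and Retnlg below the floor) the sums were 216 to 221, 230 to 240 and 210 to 219, and for the 4 Schwann cell markers 310 to 319, 307 to 312 and 290 to 300. With 5'ss-VMO 1 marker each of the satellite cell, endothelial and pericyte lists was also higher at that threshold (Chrna1, Cdh5 and Mcam). Both 5'ss-VMO arrays lay above the controls for 6 of the 8 satellite cell markers and 6 of the 7 pericyte markers, and below for 0. Of the 6 endothelial markers tested, 2 had both 5'ss-VMO arrays above the controls and 3 had both below them. The FAP marker Dpp4 was lower by 0.52 with 5'ss-VMO at the same threshold. With pA-VMO it was lower by 0.45 and did not pass (adjusted p = 0.204). With each reagent both arrays lay below the controls for 4 of the 9 FAP markers and above them for 2. Over all genes 18.8% lay below and 24.1% above with pA-VMO, and 21.5% and 23.2% with 5'ss-VMO. The part of these cells in the differences of the replication genes was not tested. In pooled bulk samples, fewer cells of a type and less RNA per cell cannot be told apart.

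Replication genes read higher with either reagent than with the control VMO, by small amounts that did not pass the test gene by gene. With pA-VMO, 41 of the 42 members tested (97.6%) had a difference above 0, where 55.2% of all genes tested did, and with 5'ss-VMO 42 of 42 did, where 50.4% of all genes did. Several of these signs rested on 1 array. Without the second 5'ss-VMO array the sign turned for Cdc45, Gins3, Pola2, Pole2, Pold1, Rfc2, Ung, Tk1, Dut and Ccne1. Without the second pA-VMO array it turned for Gins3, Pola1, Pold3 and Dut. The median difference of the members was 0.16 with pA-VMO (range -0.02 to 0.46) and 0.14 with 5'ss-VMO (range 0.01 to 0.47), and the medians of all 14953 genes were 0.01 and 0.00. Both comparisons use the same 2 control arrays, so a low reading there enters both. The list was chosen with earlier results of these data known, so these shares describe it and are no independent support. The plot of differences by gene shows that the members, apart from Dut with pA-VMO, lie above 0, most of them with an interval that reaches it.

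**Figure D1:**
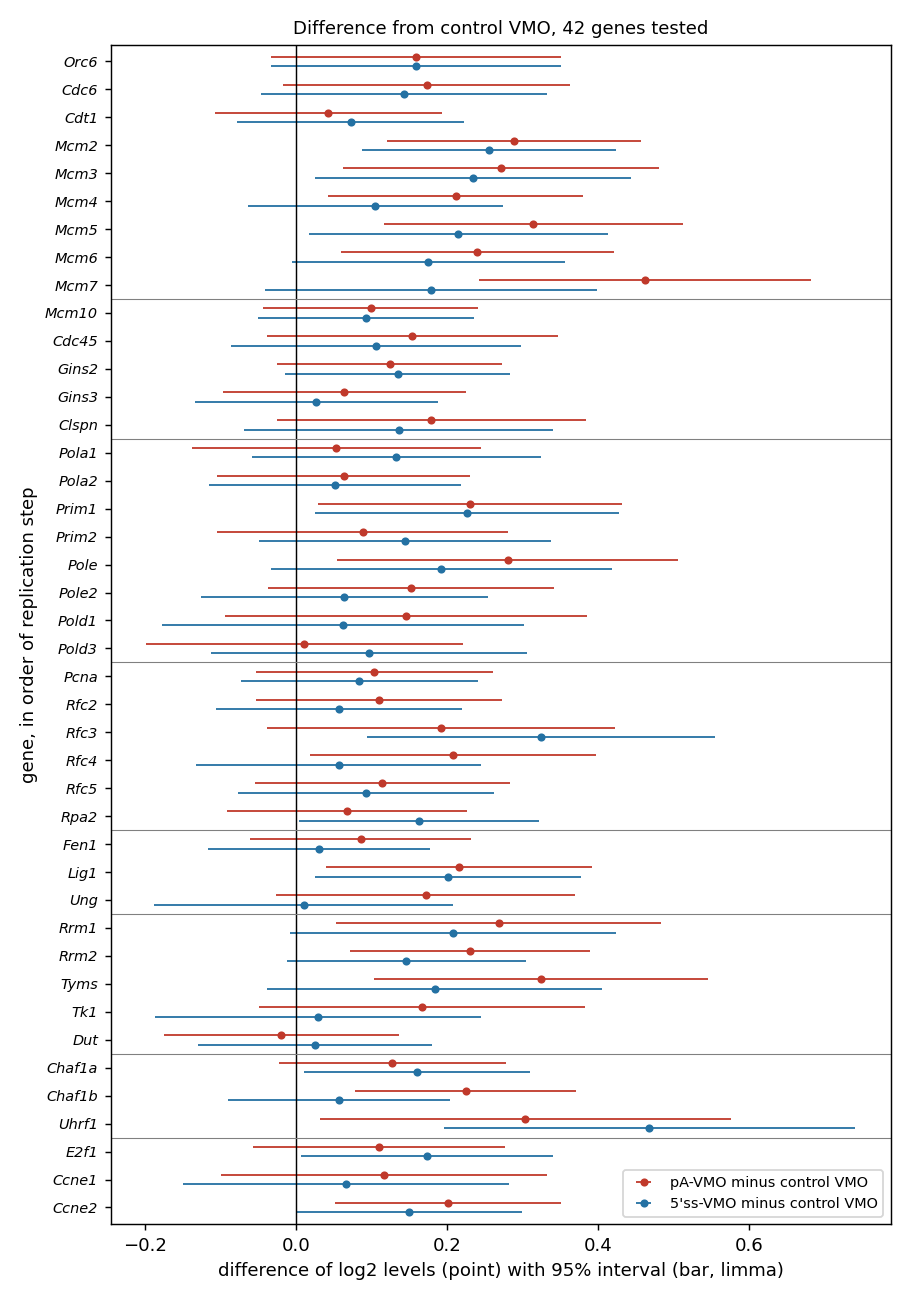
Difference of each member tested from control VMO (log2, horizontal axis) for pA-VMO and 5'ss-VMO, with 95% intervals from limma, ordered by step of replication. Members lie between -0.02 and 0.47, with Mcm7 highest for pA-VMO and Uhrf1 highest for 5'ss-VMO, and 0 of them passed an adjusted p of 0.05.

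A gene was called where its p in limma's test, adjusted over all genes by Benjamini-Hochberg, was under 0.05, and no member was. For pA-VMO against control 0 of 42 members and 1 of 14953 genes (0.00669%) were called, and the adjusted p of the members ran from 0.222 to 0.978. At an unadjusted p under 0.05, 16 members (38.1%) were higher and 0 lower, where 6.22% of all genes were higher and 5.23% lower. Both pA-VMO arrays lay above both control arrays for 36 members (85.7%), where 24.1% of all genes did, and below them for 0, where 18.8% did. The 6 members with overlapping arrays were Cdt1, Gins3, Pola1, Pola2, Pold3 and Dut.

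For 5'ss-VMO against control, 0 of 42 members and 87 genes (0.582%) were called, and the adjusted p of the members ran from 0.157 to 0.975. An unadjusted p under 0.05 was reached by 11 members (26.2%), all higher, where 7.72% of all genes were higher and 6.19% lower. Both 5'ss-VMO arrays lay above both control arrays for 25 members (59.5%), where 23.2% of all genes did, and below them for 0, where 21.5% did. With the 4 treated arrays set against the controls, 42 of 42 members had a difference above 0, where 53.0% of all genes did. Called were 0 members and 26 genes (0.174%), of which 20 were higher (0.134%) and 6 lower (0.0401%). At an unadjusted p under 0.05, 18 members (42.9%) were higher and 0 lower, where 6.55% and 4.98% of all genes were. All 4 treated arrays lay above both controls for 22 members (52.4%) and below them for 0, where 10.3% and 8.38% of all genes did.

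**Figure D2:**
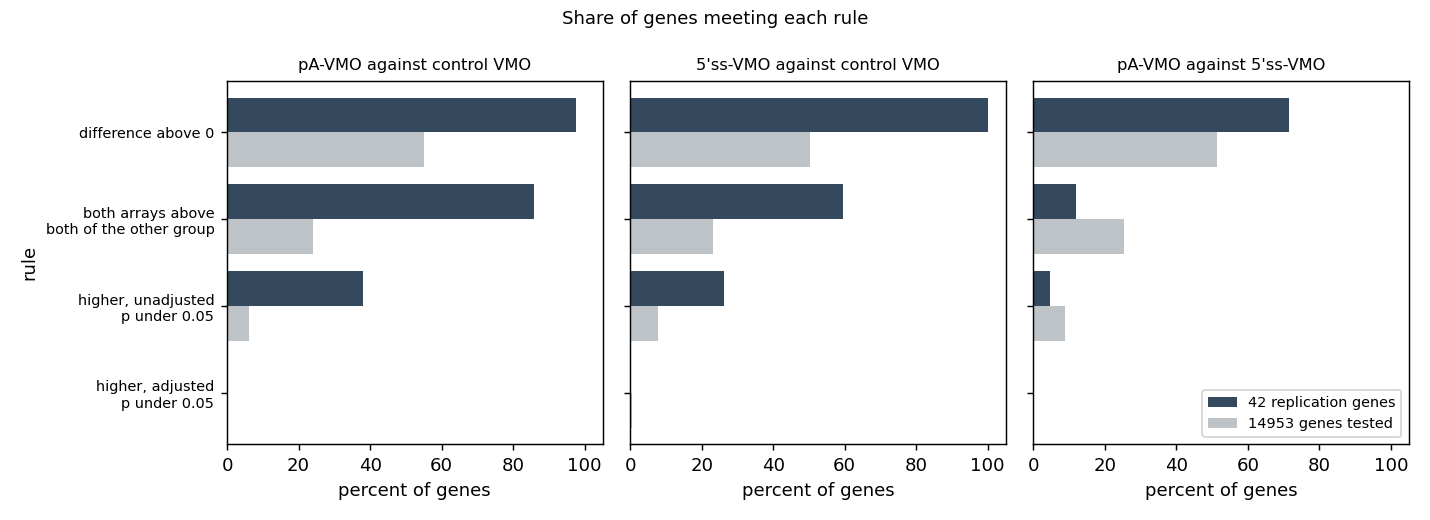
Share of the 42 replication genes (dark) and of the 14953 genes tested (light) that meet each rule, in percent, for each of 3 comparisons. Both comparisons with control show larger shares for the replication genes than for all genes under every rule except the adjusted p, where 0 replication genes passed, and between the reagents the members exceed all genes in the share above 0 alone.

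The counts at an unadjusted p rest on few arrays. The 16 members higher with pA-VMO became 8 without the second control array, 10 without the first pA-VMO array and 9 without the second. The 11 with 5'ss-VMO became 6 and 3 without the first and the second control array, 18 without the first 5'ss-VMO array and 2 without the second, and the median difference then fell from 0.14 to 0.06. The 25 members with both 5'ss-VMO arrays above the controls became 41 without the first of them. With fewer arrays any gene meets this rule more easily. The second 5'ss-VMO array alone lay above both controls for 36.9% of all genes. The 18 with both reagents together became 9 without the second control array, and their 22 without overlap became 35 without the first 5'ss-VMO array. Subtracting each array's median gave 6 in place of 11 for 5'ss-VMO, and repeating a quantile normalization gave 5.

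Origin licensing had the highest median difference of the 8 steps with pA-VMO. Both pA-VMO arrays lay above the controls for 8 of the 9 licensing genes tested and both 5'ss-VMO arrays for 7. Over all genes 24.1% and 23.2% did so. The medians of the licensing genes were 0.24 and 0.18 (log2). The 6 subunits of the Mcm2 to Mcm7 ring, the motor of the replicative helicase, accounted for every licensing gene with an unadjusted p under 0.05. Their differences with pA-VMO ran from 0.21 to 0.46 with a median of 0.28, and with 5'ss-VMO from 0.11 to 0.26 with a median of 0.20.

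Mcm7 (chr5:138164583-138172111, GRCm38.p6) gave log2 levels of 6.91 and 7.01 on the control arrays, 7.33 and 7.51 with pA-VMO and 7.02 and 7.26 with 5'ss-VMO. Both pA-VMO arrays were above every other array, and the first 5'ss-VMO array lay next to the controls. The difference with pA-VMO was 0.46 ± 0.097 (SE, n = 2 arrays a group; adjusted p = 0.222), a 1.38-fold higher level with a 95% interval of 0.24 to 0.68 on the log2 scale. With 5'ss-VMO it was 0.18 (interval -0.04 to 0.40; adjusted p = 0.443). Mcm7 is a core subunit of the ring, and its gene also carries a microRNA cluster in its introns.

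Mcm2 read 7.37 and 7.33 in controls, 7.62 and 7.65 with pA-VMO and 7.52 and 7.69 with 5'ss-VMO. All 4 treated arrays lay above both controls, and those of the 2 reagents overlapped. The differences were 0.29 ± 0.074 with pA-VMO (adjusted p = 0.251) and 0.26 ± 0.074 with 5'ss-VMO (adjusted p = 0.201). Mcm5, whose product closes the gate of the ring together with that of Mcm2, read 7.31 on both control arrays, 7.61 and 7.63 with pA-VMO and 7.39 and 7.66 with 5'ss-VMO. Again the treated arrays were all above the controls, with the first 5'ss-VMO array nearest to them. Its differences were 0.31 ± 0.088 (adjusted p = 0.278) and 0.21 ± 0.088 (adjusted p = 0.324).

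Mcm6, with E2F-type letters at 2 places in the window printed above, read 8.09 and 8.03 in controls, 8.23 and 8.37 with pA-VMO and 8.16 and 8.31 with 5'ss-VMO. The controls were again lowest, and the reagents overlapped. The differences were 0.24 ± 0.080 (adjusted p = 0.334) and 0.18 (adjusted p = 0.370). Mcm3 had differences of 0.27 and 0.23, with all treated arrays above the controls. Mcm4 had 0.21 and 0.11, and its first 5'ss-VMO array lay between the controls.

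The loaders of the ring lay closer to the controls. Orc6, a subunit of the origin recognition complex, was higher by 0.16 with each reagent, and Cdc6, the ATPase that recruits the helicase, by 0.17 and 0.14. Cdt1, which brings the ring to the origin, differed by 0.04 and 0.07. None of the 3 had an unadjusted p under 0.05. Orc1, the largest subunit of the origin complex, and Gmnn, which codes for geminin, the inhibitor of Cdt1, were below the level floor and were not tested. Orc1 read 5.09 and 5.21 in controls, 5.06 and 5.10 with pA-VMO and 5.15 and 5.22 with 5'ss-VMO, and Gmnn read 4.90 and 4.73, then 4.75 and 4.93, then 4.78 and 4.92. The treated arrays overlapped the controls for both genes, while both pA-VMO arrays lay below both 5'ss-VMO arrays for Orc1.

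**Figure D3:**
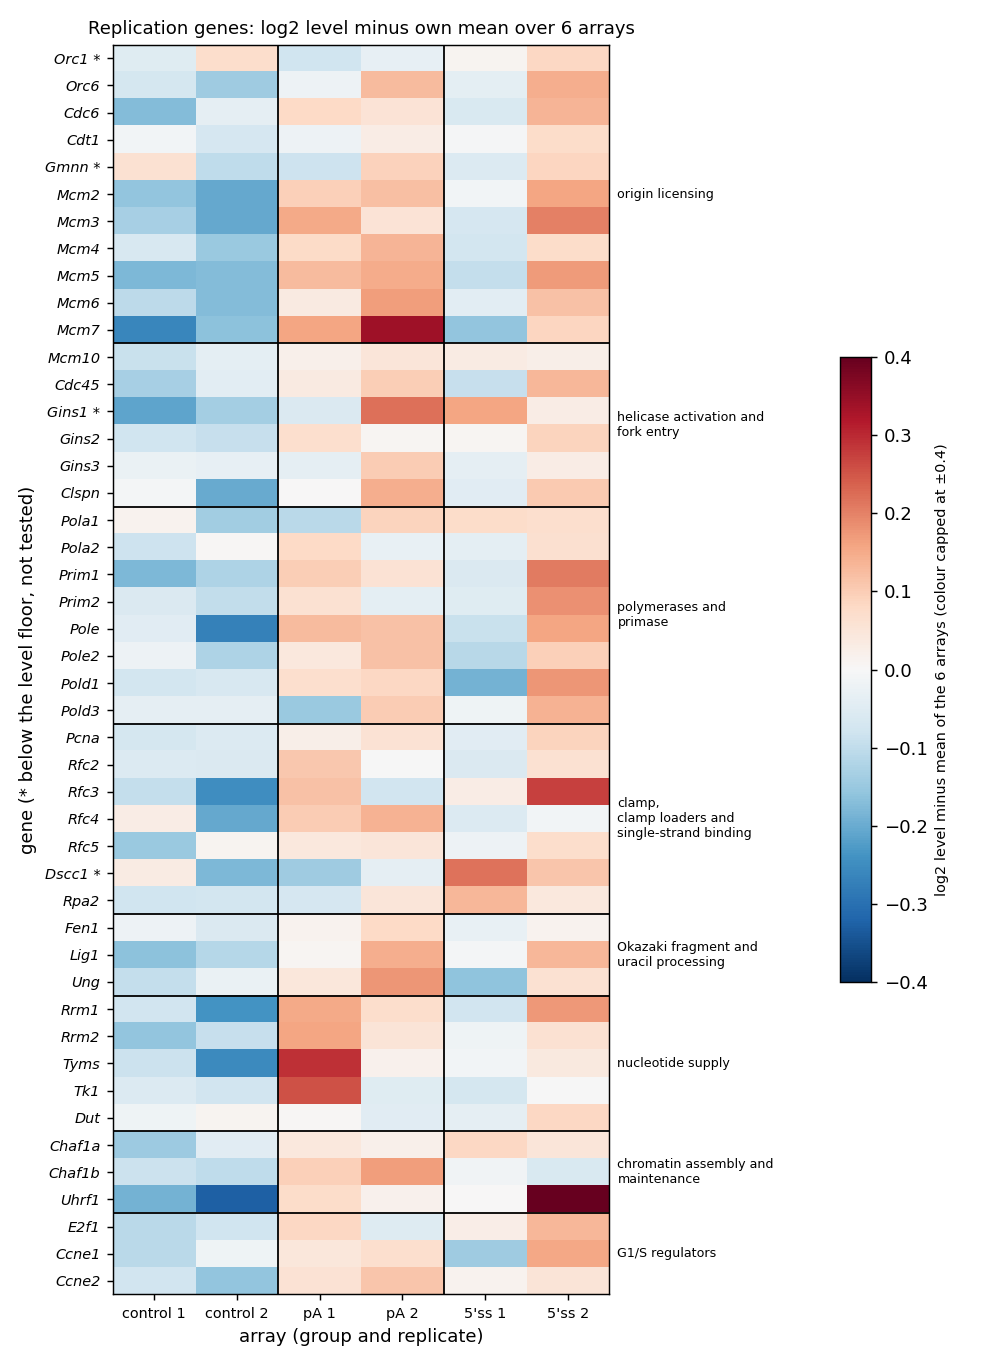
Level of every member on each of the 6 arrays relative to the member's own mean over the arrays (log2, colour), in rows by step of replication. The 2 control arrays hold the lowest reading of 14 and 22 of the 42 members tested, against 14.0% and 21.3% of all genes. The first 5'ss-VMO array lies nearer to the controls than the other treated arrays.

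Genes that turn the loaded ring into a fork had smaller differences, with medians of 0.12 and 0.11 over the 5 tested. Gins2, a subunit of the GINS complex of the active helicase, read 6.80 and 6.79 in controls, 6.95 and 6.89 with pA-VMO and 6.89 and 6.97 with 5'ss-VMO. Its treated arrays were all above the controls, with differences of 0.12 ± 0.066 (adjusted p = 0.516) and 0.13 (adjusted p = 0.40). Clspn, which codes for claspin, the mediator between fork and checkpoint kinase, read 6.22 and 6.03, then 6.23 and 6.37, then 6.18 and 6.33. The first control array reached into the 5'ss-VMO readings, and the differences were 0.18 ± 0.091 and 0.14. Cdc45, which joins the ring and GINS in the active helicase, was at 0.15 and 0.11, Mcm10, which activates it, at 0.10 and 0.09, and Gins3 at 0.06 and 0.03. Gins1 lay below the floor, with 4.45 and 4.52 in controls, 4.60 and 4.88 with pA-VMO and 4.82 and 4.69 with 5'ss-VMO. It was not tested, though its treated arrays were above both controls.

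Among the 8 genes of primase and the replicative polymerases, 5 lay above the controls on both arrays of pA-VMO and 4 on both of 5'ss-VMO. Over all genes 24.1% and 23.2% did so. The medians of these 8 genes were 0.12 in each comparison. Prim1, the catalytic subunit of primase, which lays the RNA primers, read 6.54 and 6.60 in controls, 6.82 and 6.78 with pA-VMO and 6.66 and 6.93 with 5'ss-VMO. All treated arrays lay above the controls, and the difference was 0.23 ± 0.089 with each reagent (adjusted p = 0.389 and 0.314). Pole, the catalytic subunit of the leading-strand polymerase epsilon, read 6.58 and 6.35, then 6.75 and 6.74, then 6.54 and 6.78. Its pA-VMO arrays were above both controls while 1 of its 5'ss-VMO arrays was not, and the differences were 0.28 ± 0.100 (adjusted p = 0.356) and 0.19 (adjusted p = 0.427).

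Pole2, the second subunit of the same enzyme, read 6.10 and 6.00 in controls, 6.16 and 6.24 with pA-VMO and 6.01 and 6.22 with 5'ss-VMO. Its 5'ss-VMO arrays overlapped the controls, with differences of 0.15 and 0.06. The polymerase alpha genes Pola1 and Pola2, which extend the primers, lay at 0.05 and 0.06 with pA-VMO and 0.13 and 0.05 with 5'ss-VMO. Prim2, the large primase subunit, had 0.09 and 0.14. Of the lagging-strand polymerase delta, the catalytic Pold1 had 0.15 and 0.06 and the accessory Pold3 had 0.01 and 0.10.

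The clamp, its loaders and the single-strand binding protein had medians of 0.11 and 0.09 over the 6 genes tested. Pcna, the clamp itself, read 9.81 and 9.82 in controls, 9.90 and 9.94 with pA-VMO and 9.83 and 9.97 with 5'ss-VMO. Its treated arrays were all above the controls, and the difference was 0.10 ± 0.070 (adjusted p = 0.613) with pA-VMO and 0.08 (adjusted p = 0.633) with 5'ss-VMO. Rfc3, a subunit of the loader that opens the clamp, read 6.40 and 6.25, then 6.61 and 6.42, then 6.53 and 6.77. It was among the members with a larger difference with 5'ss-VMO, 0.32 ± 0.102 (adjusted p = 0.231), than with pA-VMO, 0.19 (adjusted p = 0.516), and the 2 reagents' arrays overlapped.

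Rfc4, another loader subunit, read 7.05 and 6.81 in controls, 7.12 and 7.16 with pA-VMO and 6.96 and 7.01 with 5'ss-VMO. Its pA-VMO arrays were above all others and its 5'ss-VMO arrays fell between the controls, with differences of 0.21 ± 0.084 (adjusted p = 0.398) and 0.06 (adjusted p = 0.803). The loader genes Rfc2 and Rfc5 had 0.11 each with pA-VMO and 0.06 and 0.09 with 5'ss-VMO. Rpa2, which codes for a subunit of the protein that coats single-stranded DNA, had 0.07 and 0.16. Dscc1, of the alternative loader that links replication to sister chromatid cohesion, lay below the floor and was not tested. It read 5.07 and 4.86 in controls, 4.90 and 5.0 with pA-VMO and 5.25 and 5.15 with 5'ss-VMO, so that its 5'ss-VMO arrays alone were above the controls.

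Of the genes that join Okazaki fragments, Lig1, the ligase that seals them, read 6.70 and 6.75 in controls, 6.88 and 7.01 with pA-VMO and 6.86 and 7.0 with 5'ss-VMO. The treated arrays were all above the controls, and those of the reagents overlapped, with differences of 0.22 ± 0.078 (adjusted p = 0.363) and 0.20 (adjusted p = 0.309). Fen1, the nuclease that trims the flaps, had 0.09 and 0.03. Ung, which removes uracil from DNA, read 6.44 and 6.51, then 6.58 and 6.71, then 6.38 and 6.60. Its pA-VMO arrays were above the controls and its 5'ss-VMO arrays on both sides of them, with differences of 0.17 ± 0.088 and 0.01. The sign of the Ung difference with 5'ss-VMO turned under other scaling, so it has no direction here.

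Nucleotide supply had medians of 0.23 for pA-VMO and 0.15 for 5'ss-VMO over its 5 genes. Tyms, thymidylate synthase, read 7.08 and 6.91 in controls, 7.46 and 7.18 with pA-VMO and 7.15 and 7.21 with 5'ss-VMO. Both reagents lay above both controls, and the pA-VMO arrays were far apart from each other. The differences were 0.32 ± 0.098 (adjusted p = 0.304) and 0.18 (adjusted p = 0.437). Rrm2, the regulated small subunit of ribonucleotide reductase, read 7.95 and 8.01, then 8.26 and 8.16, then 8.09 and 8.17. Its treated arrays were also all above the controls, with differences of 0.23 ± 0.070 (adjusted p = 0.310) and 0.15 (adjusted p = 0.395). Rrm1, the large subunit of that enzyme, had 0.27 and 0.21, and Tk1, the thymidine kinase of the salvage route, 0.17 and 0.03. Dut, the dUTPase that keeps uracil out of DNA, was the member with a difference below 0 with pA-VMO, at -0.02, and had 0.03 with 5'ss-VMO, a sign that turned when quantile normalization was repeated.

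Uhrf1 had the largest difference of any member with 5'ss-VMO. It codes for the protein that reads hemimethylated DNA behind the fork and recruits the maintenance methyltransferase. It read 6.50 and 6.36 in controls, 6.77 and 6.71 with pA-VMO and 6.69 and 7.11 with 5'ss-VMO. Every treated array was above the controls, and the second 5'ss-VMO array stood far above the first. The difference was 0.47 ± 0.121 with 5'ss-VMO, or 1.38-fold (adjusted p = 0.157), and 0.30 ± 0.121 with pA-VMO (adjusted p = 0.396). Without the first 5'ss-VMO array it became 0.68 with an adjusted p of 0.0404, and without the second it became 0.26 with an adjusted p of 0.375. No other member passed in any alternative run.

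Chaf1b, a subunit of the chromatin assembly factor that places histones on new DNA, read 6.62 and 6.61 in controls, 6.80 and 6.88 with pA-VMO and 6.69 and 6.65 with 5'ss-VMO. The pA-VMO arrays were above all others. Its differences were 0.22 ± 0.065 (adjusted p = 0.288) with pA-VMO and 0.06 (adjusted p = 0.738) with 5'ss-VMO. Chaf1a, the large subunit of the same factor, had 0.13 and 0.16.

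Of the regulators of entry into S phase, Ccne2, a cyclin E, read 6.10 and 6.01 in controls, 6.23 and 6.28 with pA-VMO and 6.19 and 6.22 with 5'ss-VMO. The 3 groups did not overlap, with controls lowest, 5'ss-VMO next and pA-VMO highest. The differences from control were 0.20 ± 0.066 (adjusted p = 0.329) and 0.15 (adjusted p = 0.359). The reagents differed from each other by 0.05 ± 0.066 (adjusted p = 0.752), so their order is not resolved. E2f1, the activating factor of this gene programme, read 6.65 and 6.68, then 6.85 and 6.71, then 6.79 and 6.90. Its treated arrays were all above the controls, with 0.11 ± 0.074 (adjusted p = 0.614) and 0.17 (adjusted p = 0.340). The other cyclin E gene, Ccne1, had 0.12 and 0.07.

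**Figure D4:**
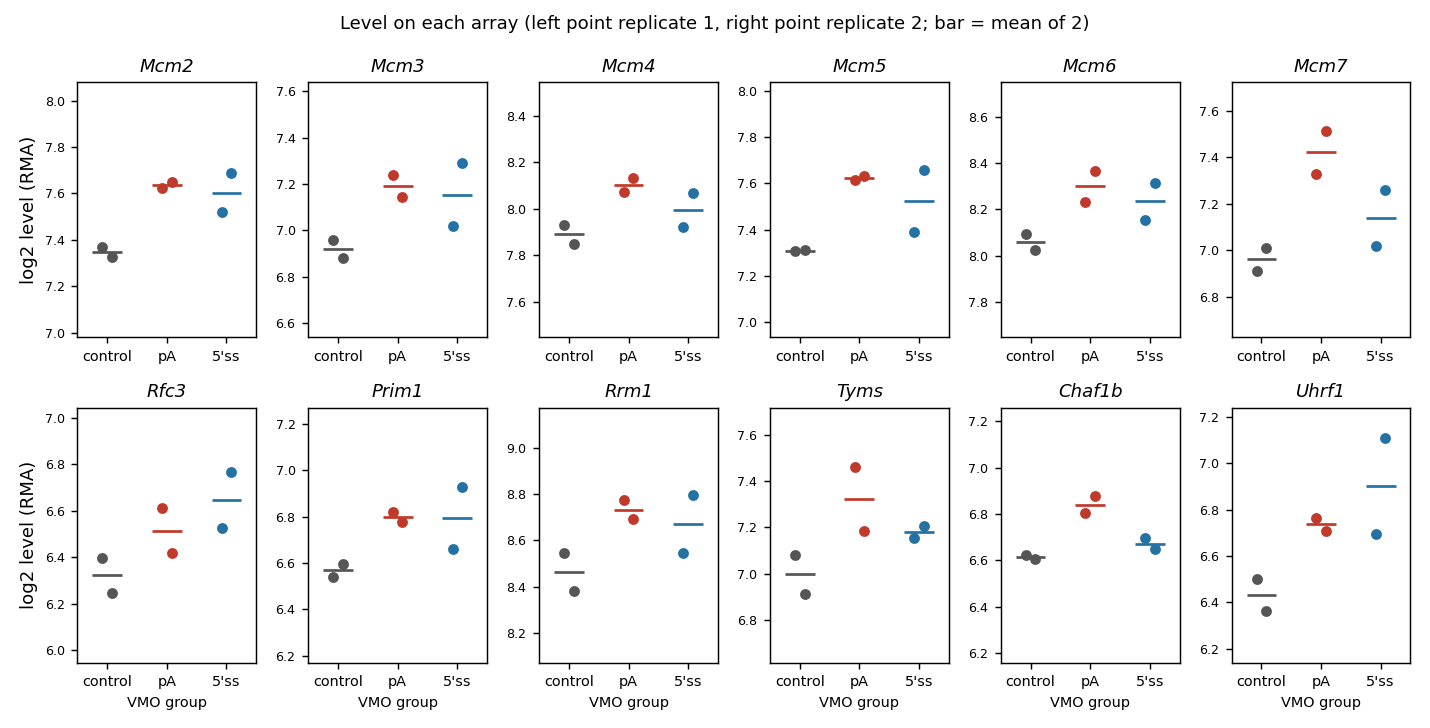
Log2 level (vertical axis, 1 panel a gene) of the 6 Mcm ring subunits, Rfc3, Prim1, Rrm1, Tyms, Chaf1b and Uhrf1 by group, with 1 point for each array and a bar at the group mean. The control points lie lowest for most of these genes, and the 2 points of 5'ss-VMO are often farther apart than those of the other groups.

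The reagents were then compared with each other. For pA-VMO against 5'ss-VMO 0 of 42 members and 9 genes (0.0602%) were called, 2 of those genes higher (0.0134%) and 7 lower (0.0468%), and the adjusted p of the members ran from 0.215 to 0.999. The median difference was 0.04 (range -0.16 to 0.28), against 0.00 over all genes, and 30 members (71.4%) were above 0 against 51.4% of all genes. At an unadjusted p under 0.05, 2 members (Mcm7 and Chaf1b) were higher with pA-VMO, where 8.81% of all genes were. Both pA-VMO arrays lay above both 5'ss-VMO arrays for 5 members (Mcm4, Mcm7, Rfc4, Chaf1b and Ccne2), where 25.5% of all genes did, and below them for Chaf1a, where 23.7% of all genes did.

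Mcm7 differed most, by 0.28 ± 0.097 (interval 0.06 to 0.50; adjusted p = 0.215), followed by Chaf1b with 0.17 (interval 0.02 to 0.31; adjusted p = 0.255). Uhrf1 and Rfc3 lay on the other side, at -0.16 and -0.13 (adjusted p = 0.541 and 0.560). The sign of the median over the members turned with 1 array. It was -0.04 without the first 5'ss-VMO array and 0.12 without the second, and 5 members then had an unadjusted p under 0.05. A difference between the reagents in these genes was thus not detected with 2 arrays a group.

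That dependence was visible array by array. The median of the members relative to their own means was -0.08 and -0.10 in controls, 0.06 and 0.07 with pA-VMO, and -0.04 and 0.09 with 5'ss-VMO, while the medians of all genes stayed within -0.01 and 0.01. For Mcm2 to Mcm7 the same values were -0.15 and -0.17, 0.11 and 0.14, and -0.07 and 0.14. The second 5'ss-VMO array was above the first for 37 of the 42 members (88.1%), where 50.75% of all genes were, and for all 6 subunits of the ring. In the control and pA-VMO groups the second array was above the first for 18 and 25 members.

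Each treated array can be set against the controls alone. The first and second pA-VMO arrays lay above both controls for 37 and 40 of the 42 members, and the 5'ss-VMO arrays for 25 and 41, where between 36% and 38.9% of all genes did. The highest reading of a member was on the second 5'ss-VMO array for 21 members and on the second pA-VMO array for 14. Over all genes these arrays held the highest reading of 18.5% and 16.1%. No member had its highest reading on a control array, where 17.2% and 13.0% of all genes had theirs on the first and the second. The 2 control arrays held the lowest reading of 14 and 22 members, where they held that of 14.0% and 21.3% of all genes.

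**Figure D5:**
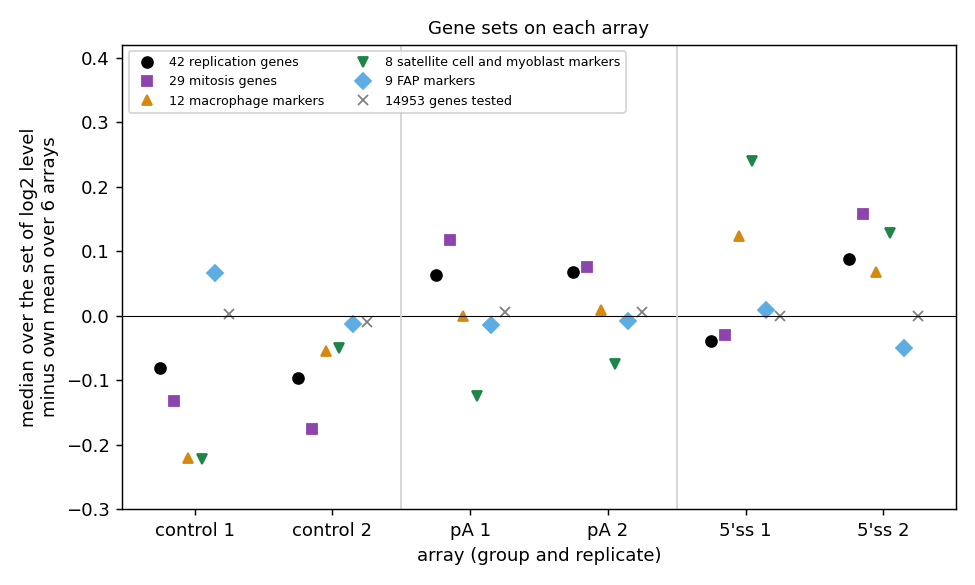
Median over the genes of a set of the level relative to each gene's own mean (log2, vertical axis) on each of the 6 arrays (horizontal axis), for the members, mitosis genes, markers of macrophages, satellite cells and FAPs, and all genes tested. The replication and mitosis sets lie below 0 on both control arrays and on the first 5'ss-VMO array, and above 0 on the second. Macrophage and satellite cell markers lie below 0 on both control arrays and above 0 on both 5'ss-VMO arrays.

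Genes of other parts of the cell cycle were counted from a list of 107 further genes of replication, G1/S control and repair, of which 98 were tested. With pA-VMO 72 of the 98 had a difference above 0, and with 5'ss-VMO 71 did, where 55.2% and 50.4% of all genes did. Both arrays lay above the controls for 50 and 41 of them, where 24.1% and 23.2% of all genes did. Both lay below for 12 and 8, where 18.8% and 21.5% of all genes did. The medians were 0.10 and 0.08. Under pA-VMO 0 were called in limma. At an unadjusted p under 0.05, 21 were higher and 6 lower, where 6.22% and 5.23% of all genes were. Under 5'ss-VMO 1 was called, where 0.582% of all genes were. At an unadjusted p under 0.05, 26 were higher and 3 lower, where 7.72% and 6.19% of all genes were. The gene called was Hells, a chromatin remodeller needed for DNA methylation. Hells read 6.24 and 6.22 in controls, 6.55 and 6.50 with pA-VMO and 6.65 and 6.80 with 5'ss-VMO, and its rise of 0.49 ± 0.072 under 5'ss-VMO passed (adjusted p = 0.025). The 8 other licensing genes (Orc2 to Orc5, Mcm8, Mcm9, Mcmbp and Lrwd1) had medians of 0.01 and 0.03, where the 9 tested licensing members had 0.24 and 0.18.

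The mitosis list lay on the same side of the controls as the replication genes. Of its 29 genes tested, 29 lay above 0 under pA-VMO and 28 under 5'ss-VMO, where 55.2% and 50.4% of all genes did. Both treated arrays lay above the controls for 25 and 21, where 24.1% and 23.2% of all genes did. The medians were 0.22 and 0.21. In limma 0 were called in either comparison, where 0.00669% and 0.582% of all genes were. At an unadjusted p under 0.05, 20 and 16 were higher, where 6.22% and 7.72% of all genes were. Mki67, the marker of cycling cells, read 7.73 and 7.63 in controls, 8.20 and 8.31 with pA-VMO and 8.10 and 8.41 with 5'ss-VMO. Its differences were 0.58 ± 0.102 (adjusted p = 0.204) and 0.57 ± 0.102 (adjusted p = 0.052).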

How the data were processed

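The deposited log2 values of Affymetrix Mouse Gene 1.0 ST arrays were made by the authors with Affymetrix Expression Console and RMA, per the submitters' processing notes. Its version and settings were not given in the sources used here. Because RMA equalises the distributions of the arrays, a change in total RNA per cell cannot be seen. The arrays were made from 100 ng of total RNA, per the labels' protocols. No scanner files or scan dates were used here.

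Of 35556 probe sets, 21789 have 1 symbol in the platform annotation, 1621 several and 12146 none. The probe set with the highest mean stands for each of 19938 genes. The 25th percentile of the gene means (log2 5.209) was the floor, and 14953 genes reached it. limma 3.58.1 in R 4.3.3 was fitted to all 6 arrays with 1 estimate of the spread (3 residual and 6.06 prior degrees of freedom) and no block. Tests were two-sided, with Benjamini-Hochberg adjustment over all genes tested. Errors are limma's SE, intervals are 95%, and folds come from log2 differences. The smallest p of an exact permutation of 2 against 2 arrays is 0.333. The procedure was run on simulated data with independent noise and 200 changed genes. There it recovered 84.4% of differences of 0.5 (log2) and 99.6% of differences of 1. These shares depend on the number of changed genes and do not carry over to the real arrays. For pA-VMO against control 1 gene was called, and Mki67, with a difference of 0.58, had an adjusted p of 0.204 in limma. Smaller differences, such as the medians of the members, were not simulated, so the run does not say how often they would be found.

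The members and all lists were chosen with earlier results of these data known. Values on every array are given, per step, for the members with the smallest p (up to 4 in licensing, 3 in polymerases, 2 elsewhere), and for Pcna and Gins1, which have the highest and the lowest mean level. The other members below the floor were added. Alternatives covered the filter, the choice of probe set, the scaling, the variance model, the replicate block and leaving out each array. Members are described by counts beside those of all genes, with no test over the list. Protein sequences were not used here.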

Additional observations from a re-analysis of the deposited data

How the results depend on the processing

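The labels share replicate numbers between the groups, but same-numbered arrays did not deviate together (correlations of -0.10, 0.02 and -0.04). With the replicate number as a block, 0 members were called, and between the reagents 23 genes were called in place of 9.

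Without the filter, 0 genes were called for pA-VMO, 24 for 5'ss-VMO, 3 between the reagents and 0 for both reagents together. A stricter filter gave 181, 102 and 100 for the last 3 comparisons. A variance trend gave 51, 266, 197 and 195 for the 4 comparisons in that order. Centring the arrays gave 17 for both reagents together, repeating quantile normalization gave 14 there and 5 between the reagents, and averaging probe sets gave 15 between the reagents. Members with an unadjusted p under 0.05 for 5'ss-VMO were 6 after centring and 5 after quantile normalization. Ung and Dut with 5'ss-VMO then had -0.011 and -0.0074.

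Leaving out 1 array in turn gave 0 to 2 genes called for pA-VMO, 8 to 76 for 5'ss-VMO, 1 to 18 between the reagents and 0 to 8 for both reagents. Members called were 0 to 1 for 5'ss-VMO (Uhrf1), and 0 in the other comparisons. Median differences of the members were 0.063 to 0.182 for 5'ss-VMO and -0.044 to 0.115 between the reagents. Members with an unadjusted p under 0.05 were 8 to 17 for pA-VMO, 2 to 18 for 5'ss-VMO, 2 to 5 between the reagents and 9 to 25 for both. Members without overlap were 25 to 41 for 5'ss-VMO, 6 to 35 between the reagents and 22 to 35 for both, a rule that fewer arrays meet more easily. Single differences whose sign turned ran, with pA-VMO, from -0.0046 to 0.133 for Gins3, -0.045 to 0.152 for Pola1, -0.114 to 0.136 for Pold3 and -0.044 to 0.0057 for Dut. With 5'ss-VMO they ran from -0.0066 to 0.219 for Cdc45, -0.0071 to 0.061 for Gins3, -0.0008 to 0.104 for Pola2, -0.040 to 0.168 for Pole2, -0.121 to 0.246 for Pold1, -0.0021 to 0.117 for Rfc2, -0.062 to 0.174 for Rfc4, -0.100 to 0.120 for Ung, -0.0048 to 0.063 for Tk1, -0.033 to 0.084 for Dut and -0.083 to 0.215 for Ccne1. Between the reagents, 7 members were followed one by one, and those that turned ran from -0.052 to 0.118 for Mcm2, -0.033 to 0.232 for Mcm5, -0.014 to 0.144 for Mcm6 and -0.372 to 0.044 for Uhrf1. The cause was not tested.

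There were 2 arrays a group, and the median SE over all genes was 0.074.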

Other observations

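Mcm7 carries 3 microRNAs in its introns, and the array has probe sets for them. They were looked at after the values of Mcm7 were seen. Their mature sequences, from RefSeq (GRCm38.p6), are shown to set their seeds, bases 2 to 8 in capitals, side by side.
miR-106b-5p: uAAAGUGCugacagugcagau
miR-93-5p: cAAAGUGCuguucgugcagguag
miR-25-3p: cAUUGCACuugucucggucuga
The first pair share their seed. The probe set of miR-106b read 5.56 and 5.44 in controls, 5.79 and 5.54 with pA-VMO and 5.50 and 5.62 with 5'ss-VMO, and that of miR-93 read 5.92 and 6.14, then 6.27 and 6.26, then 6.23 and 6.25. The treated arrays lay above the controls for miR-93 and overlapped them for miR-106b. Differences from control with pA-VMO were 0.16 for miR-106b, 0.23 for miR-93 and 0.11 for miR-25 (adjusted p = 0.553, 0.352 and 0.576 in limma), and with 5'ss-VMO 0.06, 0.21 and 0.00. Whether these probe sets also read the Mcm7 transcript was not tested.

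Several members start next to a gene that runs the other way. Also looked at after the values were seen, the neighbours' differences with pA-VMO and 5'ss-VMO were -0.06 and -0.01 for Ap4m1 beside Mcm7 (138 bases between the starts), -0.02 and 0.02 for Zswim9 beside Lig1 (105 bases), 0.00 and 0.12 for Ufd1 beside Cdc45 (322 bases) and 0.05 and 0.02 for Tmem258 beside Fen1 (281 bases).

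Among 22 further genes of E2F and cyclin control that were tested, 14 had a difference above 0 under pA-VMO and 16 under 5'ss-VMO. Over all genes 55.2% and 50.4% did. Both arrays lay above the controls for 9 and 10 of them, where 24.1% and 23.2% of all genes did. Both lay below for 5 and 2, where 18.8% and 21.5% of all genes did. In limma 0 were called, where 0.00669% and 0.582% of all genes were. At an unadjusted p under 0.05, 8 and 6 were higher, where 6.22% and 7.72% of all genes were. The 3 genes that follow were named after their values were seen, and none passed. Rbl2, which codes for the retinoblastoma relative p130 of quiescent cells, read 7.77 and 7.81 in controls, 7.46 and 7.61 with pA-VMO and 7.62 and 7.61 with 5'ss-VMO, below the controls on every treated array. Its differences were -0.25 ± 0.072 and -0.18 ± 0.072 (adjusted p = 0.280 and 0.321). Tfdp2, a partner of E2F factors, had -0.28 and -0.09 (adjusted p = 0.278 and 0.624), with 5'ss-VMO arrays that overlapped the controls. Skp2, of the ligase that degrades p27, lay above the controls by 0.30 with each reagent (adjusted p = 0.239 and 0.110).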
